A study of Homo sapiens with 4 samples.

Results

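RNA of the glucose-sensing factors MLX and MLXIP (MondoA) and of the alpha-arrestins TXNIP, ARRDC1, ARRDC2, ARRDC3 and ARRDC4 was followed in J.gamma1 cells given the compound FB23-2. J.gamma1 was derived from Jurkat, an acute lymphoblastic leukaemia line of human T cells, and is known for lacking the signalling enzyme PLCG1, and FB23-2 is a small-molecule inhibitor of the RNA demethylase FTO. Treated cells were cultured with 10 µM FB23-2 and control cells with DMSO at under 0.1%, each for 48 h, with 2 biological replicates per group. The 7 genes were taken by name from the 64252 gene IDs of the deposited count table, and all 7 were found there. The family was chosen by the counts of ARRDC3, after its rise had been seen in the same comparison of FB23-2 with control. The other 6 genes were added as its relatives and as the factors best known to control TXNIP and ARRDC4. Values of the members in that comparison are therefore given as a description, without p-values, and whether a member passed the threshold of the fit over all genes supports nothing further.

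MLXIP and MLX form a pair of basic helix-loop-helix leucine zipper proteins that moves to the nucleus when glucose 6-phosphate builds up and binds carbohydrate response elements, paired E-box-like sites in promoters. TXNIP and ARRDC4 are the best-known targets of this pair. Alpha-arrestins are adaptor proteins with an arrestin fold. Most carry PPxY motifs that recruit NEDD4-family ubiquitin ligases to membrane proteins, so that transporters and receptors are taken up and sorted. TXNIP also binds thioredoxin, and TXNIP and ARRDC4 lower glucose uptake through glucose transporters.

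The libraries held 37804516 and 33983246 counts with FB23-2 and 24615359 and 34897961 counts in control, so that 3 counts corresponded to 0.0794 to 0.122 CPM. Of 10 T-lineage markers all were detected, with summed levels of 1374 to 1437 CPM with FB23-2 and 1889 to 1894 CPM in control, so the label of a T-cell line was met. B-lineage markers summed to 44.2 to 45.7 CPM with FB23-2 and 39.1 to 45.3 CPM in control, most of it CD79A. Myeloid, natural killer, erythroid and stromal markers each summed to at most 7.06 CPM in any library. PLCG1 RNA was present in every library, at 295 and 291 CPM with FB23-2 and 265 and 265 CPM in control. Counts per gene do not show whether the enzyme is made, so its lack in this line was not tested. FTO stood at 62.8 and 60.8 CPM with FB23-2 and 55.9 and 55.9 CPM in control. The mitochondrial genome took 6.39% and 6.37% of counts with FB23-2 and 6.24% and 5.96% in control. The part of these differences in the values below was not tested. In bulk samples, fewer cells of a type and less RNA per cell cannot be told apart.

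Promoter sequences are shown first, because MLXIP with MLX binds carbohydrate response elements and TXNIP and ARRDC4 are its best-known targets. Whether the pair controls ARRDC1, ARRDC2 or ARRDC3 was not tested. RefSeq windows (GRCh38.p14) from 250 bases before to 50 bases after each annotated start were found for all 7 genes, with a second start for TXNIP, ARRDC2 and ARRDC3. Each line below gives bases before the first listed start, 5′ to 3′ on the gene's strand, starting 250 bases before it and ending after at most 210 bases, or sooner where an annotated exon begins, as for ARRDC3. Capitals mark every match to the E-box-like site CACGNG on either strand, which includes the E-box CACGTG. TXNIP, ARRDC4, MLX and ARRDC2 are shown because they hold matches in that stretch, and ARRDC3 because its RNA differed most.
TXNIP (chr1:145996620-145996829, minus strand): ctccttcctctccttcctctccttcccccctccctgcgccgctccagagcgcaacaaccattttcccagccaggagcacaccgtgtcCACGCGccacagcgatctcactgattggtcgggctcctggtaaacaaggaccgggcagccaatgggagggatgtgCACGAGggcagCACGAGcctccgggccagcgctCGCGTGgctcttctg
ARRDC4 (chr15:97960453-97960662, plus strand): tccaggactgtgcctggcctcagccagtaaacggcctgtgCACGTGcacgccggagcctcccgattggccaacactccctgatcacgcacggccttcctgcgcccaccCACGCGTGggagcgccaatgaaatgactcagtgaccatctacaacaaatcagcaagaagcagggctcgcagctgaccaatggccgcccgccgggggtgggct
MLX (chr17:42566850-42567059, plus strand): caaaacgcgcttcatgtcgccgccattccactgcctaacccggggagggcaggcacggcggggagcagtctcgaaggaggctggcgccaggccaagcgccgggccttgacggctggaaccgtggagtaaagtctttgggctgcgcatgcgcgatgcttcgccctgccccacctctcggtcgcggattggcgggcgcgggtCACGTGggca
ARRDC2 (chr19:18000874-18001083, plus strand): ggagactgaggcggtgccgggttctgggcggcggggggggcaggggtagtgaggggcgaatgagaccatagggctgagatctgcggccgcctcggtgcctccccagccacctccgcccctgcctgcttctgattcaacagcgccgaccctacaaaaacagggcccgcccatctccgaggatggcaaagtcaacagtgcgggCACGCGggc
ARRDC3 (chr5:91383360-91383567, minus strand): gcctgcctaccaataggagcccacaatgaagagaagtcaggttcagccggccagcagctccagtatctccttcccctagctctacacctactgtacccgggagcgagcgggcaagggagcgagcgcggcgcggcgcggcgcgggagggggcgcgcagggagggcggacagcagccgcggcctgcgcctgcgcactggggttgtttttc

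The first TXNIP window held CACGAG at -88 and again at -77, which are spaced by 5 bases. An arrangement of that kind (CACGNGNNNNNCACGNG, each site on either strand) was found in 27 of 35116 windows of all RefSeq genes, or 0.0769%, and in no other window of the 7 genes. The other E-box-like matches of TXNIP began at -163 and -55. ARRDC4 held an E-box at -210 and 2 overlapping E-box-like matches at -142 and -140. MLX held an E-box at -50. An E-box was present in 7.26% of all windows and an E-box-like site in 30.5%. ARRDC2 had E-box-like matches at -49, -22 and -13 of its first start, and ARRDC3 had 1, at -193 of its second start. The first window of ARRDC3, the second windows of TXNIP and ARRDC2, and the windows of MLXIP and ARRDC1 held none of these sites. A match describes the sequence only, and binding was not measured. Pairs were searched with exact letters and a spacing of 5 bases, so looser pairs in the other windows were not looked for.

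**Figure D1:**
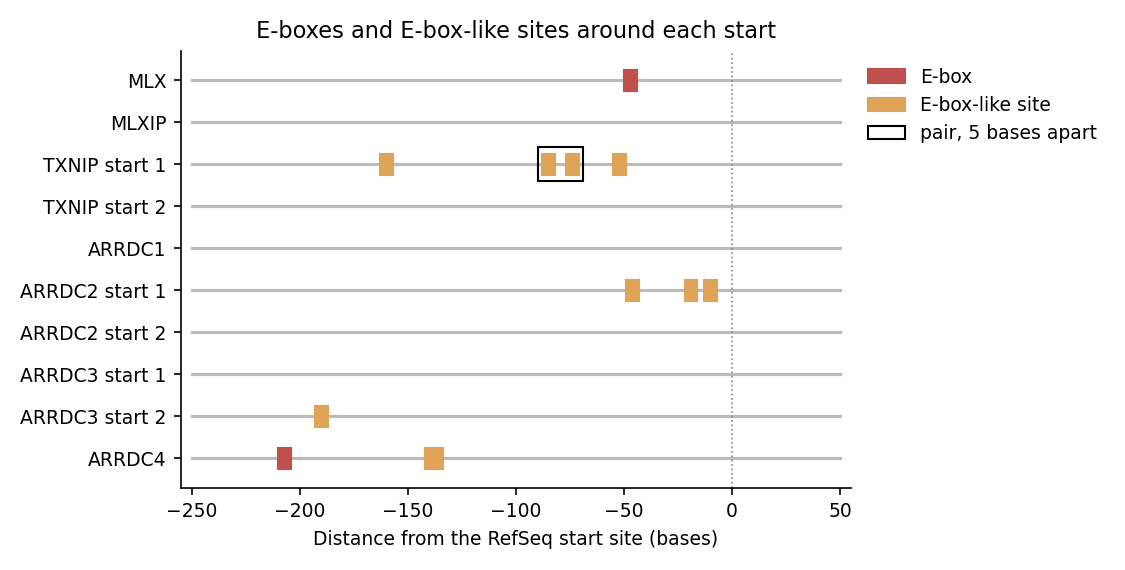
Positions of E-boxes (red), other E-box-like sites (orange) and the pair spaced by 5 bases (black frame) around each RefSeq start of the 7 genes, with distance from the start in bases on the x axis. The pair appears only in the first TXNIP window, and the E-boxes lie in the MLX and ARRDC4 windows.

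The transcription factor pair was abundant and close to level between the groups. MLX (ENSG00000108788, chromosome 17, 42567068 to 42573239 of hg38), the shared partner of MLXIP, had 85.2 and 82.1 CPM with FB23-2, against 96.8 and 93.1 CPM in control. Its groups did not overlap, and its log2 fold change, FB23-2 over control with its standard error (SE), was -0.18 ± 0.05, or 1.13-fold lower with FB23-2. It passed the threshold, an edgeR adjusted p of 0.05 over all tested genes. It did not pass when FB23-2 replicate 2 (log2 fold change -0.15), control replicate 1 (-0.17) or control replicate 2 (-0.21) was left out, nor with scaling by library size alone (-0.13). MLX shares 18.1% of its exon bases with PSMC3IP on the opposite strand, and the counting is not stated to use strand. PSMC3IP, a meiotic recombination cofactor, had 38.9 and 35.8 CPM with FB23-2 and 23.7 and 29.3 CPM in control, the opposite direction to MLX. How many of its reads were counted for MLX was not tested, so the MLX value is uncertain by an unknown amount.

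MLXIP (ENSG00000175727, chromosome 12, 122078722 to 122147347), the glucose-responsive subunit, had 149 and 155 CPM with FB23-2, against 144 and 148 CPM in control. The lowest FB23-2 library lay just above the highest control library. The log2 fold change was 0.05 ± 0.05, not past the threshold, and the 95% interval ran from 0.967-fold to 1.11-fold. The ratio of MLXIP to MLX counts was 1.74 and 1.89 with FB23-2 and 1.49 and 1.59 in control. Per kb of exon, a scale on which genes can be set beside each other, MLX was the higher of the pair, at 19.6 ± 0.517 CPM per kb with FB23-2 and 22.3 ± 0.617 in control (SD, n = 2). MLXIP stood at 10.9 ± 0.333 CPM per kb with FB23-2 and 10.5 ± 0.179 in control (SD, n = 2). The size of these levels depends on the length used, and with the longest annotated transcript MLX was at 32.4 CPM per kb with FB23-2 and 36.7 in control, and MLXIP at 18.0 with FB23-2 and 17.4 in control. MLXIPL (ChREBP), the liver-type counterpart of MLXIP, had 0 counts in all 4 libraries, which allows at most 0.122 CPM in the shallowest library, and was not tested.

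TXNIP (ENSG00000265972, chromosome 1, 145992435 to 145996600) was the least abundant member in every library. It had 34 and 39 counts with FB23-2, against 34 and 56 counts in control, or 0.890 and 1.12 CPM against 1.41 and 1.63 CPM. Both FB23-2 libraries lay below both control libraries. The log2 fold change of -0.62 ± 0.33 did not pass, and its 95% interval ran from 0.389-fold to 1.09-fold, which at this depth takes in a level equal to control. TXNIP shared no exon bases with another annotated gene.

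ARRDC3 (ENSG00000113369, chromosome 5, 91368724 to 91383359) is an adaptor known for bringing NEDD4-family ligases to beta-adrenergic receptors and, in breast cancer cells, to integrin beta-4. It had 1533 and 1392 counts with FB23-2, against 243 and 297 counts in control. Scaled, these were 40.1 and 40.1 CPM with FB23-2 and 10.1 and 8.63 CPM in control, so that the groups lay far apart. The log2 fold change was 2.12 ± 0.10, or 4.34-fold, and ranked at place 131 from the highest among the 18817 tested genes. This is the value that led to the choice of the family, and it was 1.99 or more under every alternative that was run. ARRDC3 shares 2.94% of its exon bases with ARRDC3-AS1 on the opposite strand, which is not in the count table. The counting is not stated to use strand, and whether reads of ARRDC3-AS1 were counted for ARRDC3 was not tested.

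ARRDC4 (ENSG00000140450, chromosome 15, 97960698 to 97973838), often named beside TXNIP as a glucose-responsive gene, had 30.6 and 31.2 CPM with FB23-2, against 22.9 and 23.6 CPM in control. The groups did not overlap, and ARRDC4 passed with a log2 fold change of 0.41 ± 0.08, or 1.33-fold. Of the 2 best-known MLXIP targets, ARRDC4 was thus higher with FB23-2, while TXNIP did not pass and had its lower mean there. Whether their changes differ was not tested.

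ARRDC1 and ARRDC2 did not pass. ARRDC1 (ENSG00000197070, chromosome 9, 137605654 to 137615360), which recruits the ESCRT protein TSG101 and drives budding of vesicles from the plasma membrane, had 24.0 and 25.2 CPM with FB23-2, against 24.1 and 23.8 CPM in control. The groups overlapped, and the log2 fold change was 0.04 ± 0.08, with an interval from 0.901-fold to 1.17-fold. ARRDC1 shares 4.79% of its exon bases with AL590627.2 on the same strand, which is not in the count table. It shares 0.759% with ARRDC1-AS1 on the opposite strand. ARRDC1-AS1 had 17.0 and 17.9 CPM with FB23-2 and 18.9 and 20.5 CPM in control (log2 fold change -0.19 ± 0.10, edgeR adjusted p = 0.167). ARRDC2 (ENSG00000105643, chromosome 19, 18001132 to 18014102), a less studied family member, had 23.5 and 18.4 CPM with FB23-2, against 24.3 and 25.7 CPM in control. ARRDC2 shares 9.53% of its exon bases with AC020904.3 on the opposite strand, which had 0 counts in every library. The FB23-2 libraries of ARRDC2 were the most unlike replicates among the ARRDC genes. The log2 fold change of -0.25 ± 0.12 did not pass with all libraries and had an interval from 0.695-fold to 1.01-fold. It was -0.46 and past the threshold without FB23-2 replicate 1, and -0.088 without FB23-2 replicate 2. ARRDC5, the remaining alpha-arrestin gene, had 0 counts in all 4 libraries and was not tested.

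All 7 members passed the filter on low counts. Of these, 2 were called higher (ARRDC3 and ARRDC4), 1 lower (MLX) and 4 neither, while 42.1% of all tested genes were called, 21.8% higher and 20.3% lower. The groups did not overlap for 6 members, against 70.8% of all tested genes. The median log2 fold change was 0.04 over the members and 0.00 over all tested genes.

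**Figure D2:**
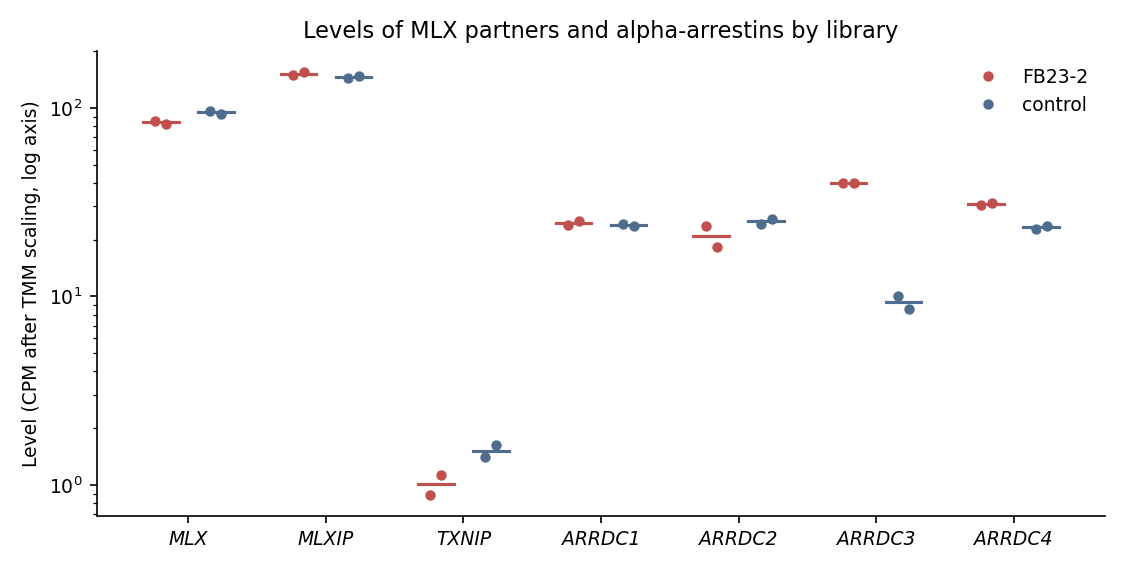
Level of each gene in CPM after TMM scaling (log axis) in the 2 FB23-2 libraries (red, left) and the 2 control libraries (blue, right), with points for libraries and lines for group means. ARRDC3 stands apart, at 40.1 CPM with FB23-2 and 8.63 to 10.1 CPM in control, and TXNIP lies lowest, at 0.890 to 1.63 CPM.

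**Figure D3:**
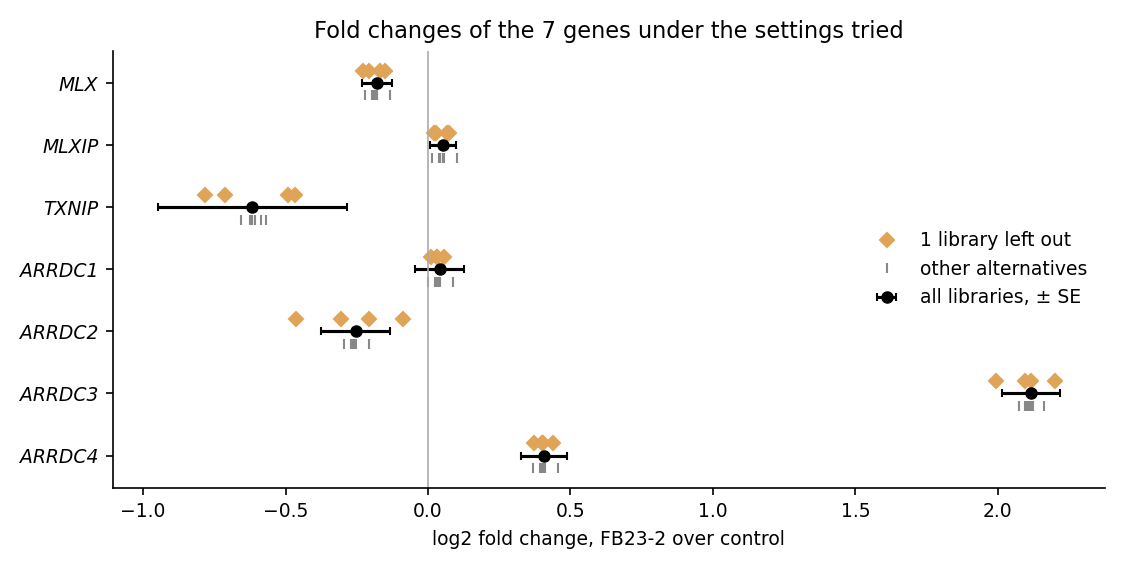
Log2 fold change of FB23-2 over control for each gene, with all libraries (black, ± SE), with 1 library left out (diamonds) and under the other alternatives (ticks). ARRDC3 lies at 1.99 or above throughout the alternatives, and ARRDC2 spreads from -0.46 to -0.088 when 1 library is left out.

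The makeup of alpha-arrestin RNA differed accordingly. Summed over the 5 alpha-arrestin members and scaled to exon length, the level was 27.3 and 26.7 CPM per kb with FB23-2, against 19.6 and 19.8 CPM per kb in control. That sum includes ARRDC3, at 8.13 CPM per kb in each FB23-2 library and 2.04 and 1.75 in control. The family was chosen by the rise of ARRDC3, so the higher sum shows no general rise of alpha-arrestin RNA. ARRDC3 made up 29.8% and 30.5% of that sum with FB23-2 and 10.4% and 8.85% in control. ARRDC1 took 23.1% and 24.7% with FB23-2, against 32.2% and 31.5% in control, and ARRDC2 18.6% and 14.9% against 26.8% and 28.0%. The share of ARRDC4 was close to level, at 27.6% and 28.8% with FB23-2 and 28.7% and 29.4% in control. TXNIP held 0.901% and 1.16% with FB23-2 and 1.99% and 2.27% in control. Shares sum to a fixed whole, so a higher share of ARRDC3 lowers the others without a change in their levels.

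The order of levels per kb of exon also differed. With FB23-2 it ran MLX, MLXIP, ARRDC3 (8.13 CPM per kb), ARRDC4 (7.59), ARRDC1 (6.44), ARRDC2 (4.52) and TXNIP (0.278). In control it ran MLX, MLXIP, ARRDC1 (6.26), ARRDC4 (5.71), ARRDC2 (5.39), ARRDC3 (1.90) and TXNIP (0.419). ARRDC3 was thus at 1.08 and 1.06 times ARRDC4 with FB23-2 and at 0.364 and 0.301 times ARRDC4 in control. Neighbours did not overlap between libraries of a group on this scale. With the longest annotated transcript as the length, however, ARRDC1 (7.54 and 7.90 CPM per kb) and ARRDC4 (7.52 and 7.67) overlapped with FB23-2, and in control ARRDC2 (6.67) stood above ARRDC4 (5.71). On that length ARRDC3 was at 9.58 CPM per kb with FB23-2, against 7.59 for ARRDC4. In control it was at 2.23, against 5.71 for ARRDC4, so the size of the ratios depends on the length.

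**Figure D4:**
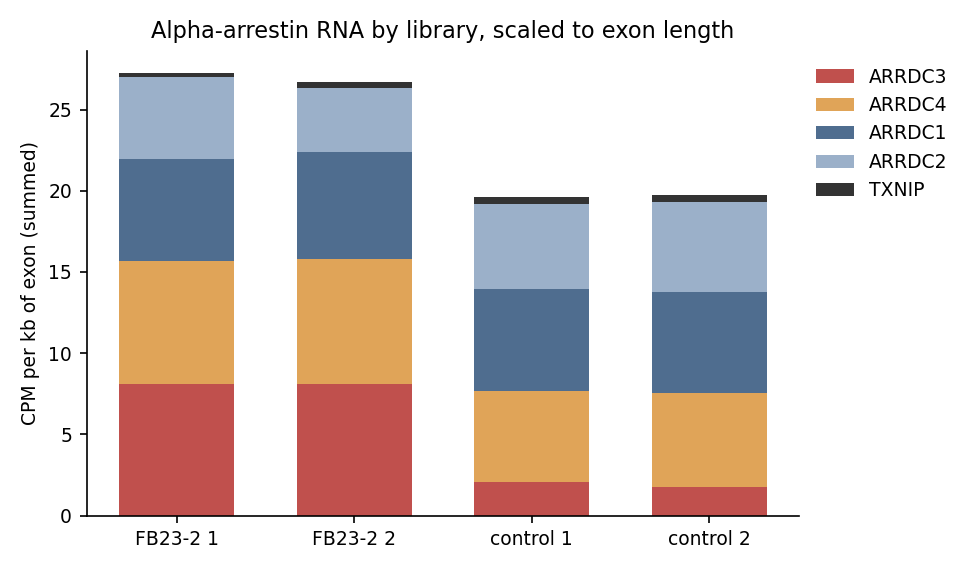
Stacked level of the 5 alpha-arrestin members per library in CPM per kb of exon, with the FB23-2 libraries on the left. The ARRDC3 segment is 8.13 CPM per kb in each FB23-2 library, against 2.04 and 1.75 in control, while the TXNIP segment is at most 0.449.

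Likeness of profile was measured as the root-mean-square difference of centred log2 CPM over the 4 libraries, among protein-coding genes with a mean of at least 5 CPM. Nearest to ARRDC3 were DACT3 (0.0669), a Dishevelled antagonist, and GBP5 (0.0672), an interferon-inducible GTPase, which had 21.9 and 20.3 CPM with FB23-2 and 4.81 and 4.33 CPM in control. ARRDC4 was nearest to DVL3 (0.0054) and ERP44 (0.00699), and MLX to EXOC4 (0.0035) and KATNIP (0.00488). TXNIP was nearest to ZNF169 (0.0246) and CARS2 (0.0362), MLXIP to RSRC2 (0.00645) and SNX1 (0.00774), ARRDC1 to ZHX3 (0.00576) and CHD2 (0.00588), and ARRDC2 to ECHS1 (0.0119) and DTD1 (0.0136). With 4 libraries in 2 groups, such nearness reflects little more than a similar fold change and replicate spread.

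Genes that work with these factors were followed in 8 lists, each read against the 21.8% of all tested genes that were higher and the 20.3% that were lower. They were tested in the fit over all genes, and their values are log2 fold changes with SE. The lists were chosen with earlier results of these data known, and the called genes named were picked by their fold changes here. Their adjusted p-values are therefore descriptive. Among the other partners of MLX, 2 of 3 tested were higher and 0 lower. MXD1, a MAX-binding repressor that opposes MYC, had 33.8 and 34.4 CPM with FB23-2, against 13.4 and 13.3 CPM in control (1.35 ± 0.09, edgeR adjusted p = 4.45e-06). MXD4, a repressor of the same family, rose by less (0.42 ± 0.07, edgeR adjusted p = 0.00138). The related repressor MNT (-0.24 ± 0.10) did not pass, except with upper-quartile scaling (edgeR adjusted p = 0.046, and 0.046 to 1 across the alternatives). The list median was 0.42.

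Genes reported as glucose-responsive targets of MLXIP or MLXIPL, most of them from liver or muscle cells, moved in both directions, with 2 higher and 3 lower of 7 tested and a median of -0.44. KLF10, a zinc finger factor, had 39.9 and 39.2 CPM with FB23-2, against 27.5 and 22.5 CPM in control (0.68 ± 0.10, edgeR adjusted p = 4.47e-04). The hexokinase HK2 rose as well (0.55 ± 0.05, edgeR adjusted p = 2.88e-05). FASN, fatty acid synthase, fell (-0.90 ± 0.06, edgeR adjusted p = 3.19e-06), as did the lactate dehydrogenase subunit LDHA (-0.59 ± 0.03, edgeR adjusted p = 2.10e-06) and the acetyl-CoA carboxylase ACACA (-0.44 ± 0.08, edgeR adjusted p = 0.00146). PFKFB3, a regulator of glycolytic flux, was at 74.5 and 73.5 CPM with FB23-2 and 76.2 and 76.0 CPM in control, and did not pass (-0.04 ± 0.05). GPD1, glycerol 3-phosphate dehydrogenase, was at 0.872 CPM or less and did not pass (-0.74 ± 0.76). It had 12 and 8 counts with FB23-2, against 21 and 6 counts in control, and without control replicate 1 its log2 fold change turned to 0.63.

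Glucose uptake and phosphorylation genes were 4 higher and 3 lower of 13 tested, with a median of 0.03. The number that were lower was 1 when control replicate 1 was left out and 1 with no filter on low counts. SLC2A3 (GLUT3), a high-affinity glucose transporter, had 35.9 and 33.5 CPM with FB23-2, against 12.7 and 11.3 CPM in control (1.55 ± 0.10, edgeR adjusted p = 4.12e-06). Reads of SLC2A3 can be shared with its near-identical copy SLC2A14, which had at most 6 counts in a library. SLC2A13, a myo-inositol transporter, rose too (0.64 ± 0.11, edgeR adjusted p = 0.00123). SLC2A1 (GLUT1), the transporter best known to be taken up with TXNIP, had 45.0 and 46.0 CPM with FB23-2, against 57.5 and 50.3 CPM in control (-0.24 ± 0.08, edgeR adjusted p = 0.0313). The SLC2A1 call was lost with library size alone (edgeR adjusted p = 0.0694) and with no filter on low counts (edgeR adjusted p = 0.0743). It was also lost when FB23-2 replicate 1 (log2 fold change -0.24), FB23-2 replicate 2 (-0.25) or control replicate 1 (-0.16) was left out. SLC2A8 (0.52 ± 0.15, edgeR adjusted p = 0.0225) was higher, but not with DESeq2 (DESeq2 adjusted p = 0.071). Nor was SLC2A8 called when FB23-2 replicate 2 (log2 fold change 0.44), control replicate 1 (0.55) or control replicate 2 (0.46) was left out. SLC2A4 was lower at 0.654 and 1.79 CPM with FB23-2, against 2.78 and 2.59 CPM in control (edgeR adjusted p = 0.0393). It was not called with DESeq2 (DESeq2 adjusted p = 0.0732) or with no filter on low counts (edgeR adjusted p = 0.0969). Nor was it called when FB23-2 replicate 1 (log2 fold change -0.59), control replicate 1 (-1.13) or control replicate 2 (-1.21) was left out. HKDC1, a hexokinase-domain gene, had 2 and 0 counts with FB23-2, against 25 and 39 counts in control (edgeR adjusted p = 4.05e-04). HK1 (-0.12 ± 0.07) did not pass, except when FB23-2 replicate 1 was left out (edgeR adjusted p = 0.0163) or replicates were blocked (0.0495; 0.0163 to 1 across the alternatives). ADPGK, an ADP-dependent glucokinase, did not pass either (0.12 ± 0.06).

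In the thioredoxin system, 1 of 13 tested genes was higher and 4 were lower, with a median of -0.08. TXN, the cytosolic thioredoxin that TXNIP binds, had 136 and 129 CPM with FB23-2, against 188 and 177 CPM in control (-0.46 ± 0.05, edgeR adjusted p = 9.02e-05). The mitochondrial thioredoxin TXN2 was lower (-0.39 ± 0.09, edgeR adjusted p = 0.00859), but not when FB23-2 replicate 2 (adjusted p = 0.0504) or control replicate 1 (0.0525) was left out (4.40e-04 to 1 across the alternatives). PRDX4, a peroxiredoxin of the endoplasmic reticulum, was lower (-0.37 ± 0.08, edgeR adjusted p = 0.00496), but not when control replicate 2 was left out (adjusted p = 0.0525, and 0.00214 to 1 across the alternatives). TXNL1 was lower (-0.18 ± 0.06, edgeR adjusted p = 0.0375), but not with DESeq2 (DESeq2 adjusted p = 0.0587). It was not called with library size alone (edgeR adjusted p = 0.0982) or with no filter on low counts (edgeR adjusted p = 0.106). Nor was it called when FB23-2 replicate 2 (log2 fold change -0.13), control replicate 1 (-0.15) or control replicate 2 (-0.23) was left out. Nucleoredoxin, NXN, rose (0.43 ± 0.08, edgeR adjusted p = 0.002). The reductase TXNRD1, at 367 and 372 CPM with FB23-2 and 383 and 384 CPM in control, did not pass (-0.05 ± 0.04). The peroxiredoxin PRDX1 (-0.24 ± 0.09) did not pass, except with replicates blocked (edgeR adjusted p = 1.89e-04) or control replicate 2 left out (0.0152; 1.89e-04 to 1 across the alternatives). The list's count of lower genes was 2 when FB23-2 replicate 2 was left out and 2 when control replicate 1 was.

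Regulators of TXNIP and subunits of the energy sensor AMPK, which marks TXNIP for degradation, had 3 higher and 3 lower of 10 tested, with a median of -0.06. ITCH, a NEDD4-family ligase known to ubiquitinate TXNIP, had 150 and 155 CPM with FB23-2, against 125 and 124 CPM in control (0.29 ± 0.04, edgeR adjusted p = 6.75e-04). The deubiquitinase USP5 fell (-0.46 ± 0.06, edgeR adjusted p = 1.60e-04). Of AMPK, the catalytic subunit PRKAA1 (0.28 ± 0.05, edgeR adjusted p = 0.00153) and the regulatory subunit PRKAG2 (0.43 ± 0.08, edgeR adjusted p = 0.00155) rose, and the beta subunit PRKAB2 fell (-0.27 ± 0.06, edgeR adjusted p = 0.00708). PRKAB1 (-0.16 ± 0.05, edgeR adjusted p = 0.0281) was lower in the main fit. It was not called with library size alone (edgeR adjusted p = 0.108) or with no filter on low counts (edgeR adjusted p = 0.0634). With any 1 library left out it was not called either, at log2 fold changes from -0.19 to -0.14. The gamma subunit PRKAG1 did not pass (-0.11 ± 0.05). DDIT4, an inhibitor of mTORC1 that binds TXNIP, was at 56.7 and 52.6 CPM with FB23-2 and 56.8 and 53.8 CPM in control and did not pass (-0.01 ± 0.07).

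The list of NEDD4-family ligases, which alpha-arrestins recruit through PPxY motifs, also held the ligase adaptors NDFIP1 and NDFIP2. It had 6 higher and 0 lower of 10 tested, with a median of 0.25. NDFIP2, a membrane adaptor that activates these ligases, had 86.6 and 83.9 CPM with FB23-2, against 42.5 and 38.3 CPM in control (1.09 ± 0.07, edgeR adjusted p = 3.05e-06). NDFIP1, its relative that restrains T-cell activation through ITCH in mice, rose as well (0.41 ± 0.06, edgeR adjusted p = 5.93e-04). NEDD4, the ligase reported to act with ARRDC3, had 58.9 and 57.1 CPM with FB23-2, against 40.1 and 37.5 CPM in control (0.58 ± 0.07, edgeR adjusted p = 1.14e-04). SMURF2 was higher (0.34 ± 0.09, edgeR adjusted p = 0.0103), but not when FB23-2 replicate 2 (adjusted p = 0.0606) or control replicate 1 (0.0923) was left out (0.00435 to 1 across the alternatives). WWP2 (-0.05 ± 0.06) and NEDD4L (0.05 ± 0.08) did not pass. With 1 library left out, 4 to 5 genes of the list were higher, the lower number when FB23-2 replicate 2 or control replicate 1 was missing.

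The ESCRT genes that take part in ARRDC1-driven budding and in sorting of ubiquitinated cargo had 7 higher and 2 lower of 13 tested, with a median of 0.17. TSG101, which ARRDC1 binds, had 96.8 and 97.4 CPM with FB23-2, against 69.5 and 75.3 CPM in control (0.42 ± 0.06, edgeR adjusted p = 2.97e-04). VPS37C (0.80 ± 0.14, edgeR adjusted p = 0.00148) and VPS37A (0.41 ± 0.06, edgeR adjusted p = 6.78e-04), subunits of the same complex, rose, as did the ATPase VPS4B (0.32 ± 0.06, edgeR adjusted p = 0.00145). MVB12B fell (-0.38 ± 0.08, edgeR adjusted p = 0.00433). HGS was lower (-0.21 ± 0.05, edgeR adjusted p = 0.00711), but not when FB23-2 replicate 2 (adjusted p = 0.0503) or control replicate 2 (0.0689) was left out (0.00254 to 1 across the alternatives). VPS4A (-0.02 ± 0.05) and VPS37B (-0.03 ± 0.05) did not pass. Leaving out control replicate 2 gave 4 higher and 1 lower, and leaving out FB23-2 replicate 2 gave 5 higher and 1 lower.

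Among the other genes with an arrestin fold, 2 of 6 tested were higher and 1 was lower, with a median of 0.13. The beta-arrestin ARRB1, which desensitises G protein-coupled receptors, had 32.5 and 32.2 CPM with FB23-2, against 54.7 and 48.9 CPM in control (-0.68 ± 0.08, edgeR adjusted p = 1.10e-04). Its paralog ARRB2 was higher (0.25 ± 0.05, edgeR adjusted p = 0.00468), but not when control replicate 1 was left out (adjusted p = 0.0712, and 0.00191 to 1 across the alternatives), which left 1 gene of the list higher. VPS26A, a retromer subunit, rose (0.46 ± 0.05, edgeR adjusted p = 1.29e-04). VPS26B (0.00 ± 0.04) and VPS26C (-0.02 ± 0.06) did not pass. No list was tested as a set, and the counts overlap where a gene is in more than 1 list, as HK2 and ITCH are.

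**Figure D5:**
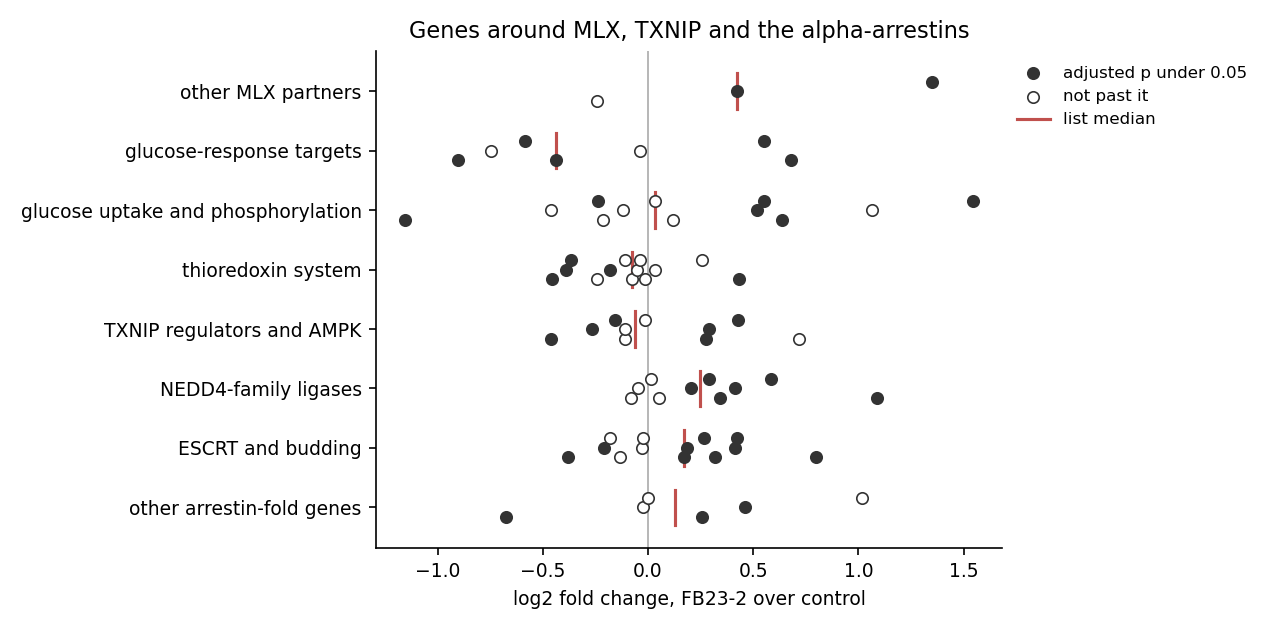
Log2 fold change of FB23-2 over control for each tested gene of the 8 lists, with filled points past an edgeR adjusted p of 0.05, open points not past it, and red lines at list medians. HKDC1 is left out of the drawing because of its low counts with FB23-2, but is in its list's median. Medians run from -0.44 for glucose-response targets to 0.42 for the other MLX partners.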

How the data were processed

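Total RNA of 4 samples was made into Illumina TruSeq libraries, per the labels' protocols. The authors deposited whole-number counts per Ensembl gene ID for all libraries in 1 table, with no normalization. HISAT2 2.2.0, StringTie and hg38 are named in the submitters' processing notes, whereas annotation, strand setting and counting step are not stated there.

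Genes were kept by filterByExpr (minimum count 10), which left 18817. They were scaled by TMM and compared with the quasi-likelihood test of edgeR 4.0.16 in R 4.3.3, with Benjamini-Hochberg adjustment over all tested genes. The SE was the absolute log2 fold change over the square root of F. The fit was tested on simulated data. Replicates differed by a chi-square per degree of freedom of 6.69 (FB23-2) and 7.48 (control), so no library was a copy. Symbols came from a list of gene names. Positions and lengths came from GENCODE release 29 and promoters from RefSeq. Intervals and floors cover counting error and the fitted spread only, and the labels call the replicates independent biological samples.

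The members and lists were chosen with earlier results of these data known. Named genes were the members, 2 relatives (MLXIPL and ARRDC5), genes overlapping a member, PLCG1, FTO, up to 4 called genes per direction and up to 2 others per list, and the 2 nearest profiles per member. CD79A and SLC2A14 were chosen after their values were seen. Alternatives were 3 scalings, 2 filters, DESeq2 1.42.0, limma-voom (limma 3.58.1), a test against 1.5-fold, a replicate block and leaving out each library.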

Additional observations from a re-analysis of the deposited data

How the results depend on the processing

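Among the 7 genes, ARRDC3, MLXIP and TXNIP kept their direction and their side of the threshold under every alternative that was run (TXNIP had no value at a minimum count of 50). ARRDC3 was at 1.99 or more on the log2 scale, and ARRDC4 lost its call only in the test against 1.5-fold (0.41). MLX lost its call with library size alone (-0.13), with no filter (-0.18), against 1.5-fold (-0.18) and in 3 of the 4 fits that left out a library, where it ranged from -0.23 to -0.15. ARRDC2 ranged from -0.46 to -0.088 with 1 library left out, and passed without FB23-2 replicate 1. ARRDC1 had a value of -0.000139 with upper-quartile scaling. The number of members called lower was therefore 0 with library size alone, with no filter and against 1.5-fold, and 0 to 2 with a library left out. Against 1.5-fold, 1 member was called higher, 434 genes in all were higher and 678 lower, and 3 higher and 2 lower genes were counted over the lists. That test asks for a larger change by construction, and the ranges of adjusted p given for single genes across the alternatives include it. The main fit counted 25 higher and 16 lower genes over the lists, so most called genes did not pass that test. The cause of the other differences was not tested.

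The replicate numbers are not stated to pair the cultures. The deviations of same-numbered libraries had a correlation of 0.244 over 11851 genes, and a replicate block gave 8268 called genes, against 7919 without it. With the block, ARRDC3 was at 2.11, ARRDC4 at 0.41 and MLX at -0.18, and no call among the members changed.

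With the longest annotated transcript as length in place of all exon bases, mean levels over the 4 libraries were 34.5 CPM per kb for MLX (against 20.97), 17.7 for MLXIP (10.7), 0.432 for TXNIP (0.348), 7.62 for ARRDC1 (6.35), 6.13 for ARRDC2 (4.95) and 5.91 for ARRDC3 (5.01). The signs of DDIT4, NEDD4L, PFKFB3, VPS26B, VPS26C, VPS37B, VPS4A and WWP2, none of them called and all close to 0, turned under at least 1 alternative. Depth limits TXNIP most, since it rests on 34 to 56 counts per library.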
